A study of Mus musculus with 6 samples.

Results

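The 10 genes described here are Trpm5, Dclk1, Pou2f3, Il25, Alox5, Ltc4s, Ptgs1, Hpgds, Gnat3 and Plcb2. Most serve chemosensing or lipid mediator synthesis in tuft cells, while Pou2f3, Il25 and Dclk1 encode a transcription factor, a cytokine and a kinase. The 10 genes were chosen by symbol, with earlier results of these data known. All 10 were found among the 32285 genes of the count tables, and each symbol stood on 1 row. Their UMIs (unique molecular identifiers, each marking 1 captured transcript) were read from epithelial cells of ileal crypts of C57BL/6J mice, sorted for the surface protein EpCAM and profiled as single cells in droplets by RNA sequencing. There were 3 libraries of Fpr2f/f mice, labelled WT, in which Fpr2 is flanked by recombination sites, and 3 libraries of Fpr2VKO mice, which carry the same floxed allele and a Cre recombinase driven by the Villin promoter. Villin is active across the intestinal epithelium, tuft cells included, so the deletion was not directed at one lineage. The product of Fpr2 binds formylated peptides, and the comparison of the genotypes asks what its loss from the epithelium changes in crypt cells. The study describes as many mice of each genotype as there are libraries, but the labels tie no library to a mouse, and p-values measure the spread between these libraries.

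Tuft cells are rare epithelial cells that sense the gut lumen with parts of the taste pathway. In the taste pathway, a receptor on the surface activates a G protein, the G protein activates phospholipase C, the calcium released opens the cation channel TRPM5, and the cell is depolarized. Activated tuft cells release interleukin-25, which acts on innate lymphoid cells, and make cysteinyl leukotrienes and prostaglandin D2 from arachidonic acid. They are best known in the small intestine for the response to helminths and protists.

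A barcode was taken as a cell when it held at least 1000 UMIs, at least 500 genes and at most 20% mitochondrial UMIs. After doublet removal 16676 cells were left, 1840 to 4544 per library, from libraries of 90142126 to 189516114 UMIs. The mitochondrial limit removed 65.7% to 90.1% of barcodes of that depth, the most in Fpr2VKO replicate 1, and barcodes below 100 UMIs, taken as free RNA, held 7.25% to 13.1% of each library. Of the cells, 223 (1.34%) had a barcode that was also a cell in another library, 9 of them tuft-like, and 3 pairs of libraries shared more than 20 barcodes where 4.54 to 5.54 were expected by chance. Fpr2 had 0 UMIs in every library, which allows at most 0.0610 to 0.119 CPM (counts scaled to a fixed total of UMIs) in the epithelial cells, so the deletion could not be checked in these data. Such limits cover counting error only.

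One cluster of 314 cells was named tuft-like from a marker list that holds none of the 10 genes, and neither these genes nor the pathway lists below were among the genes used for clustering. Its leading genes included Dclk1, Fyb, Rgs13 and Sh2d6, 12 of the 13 tuft markers were higher there and seen in at least 10% of its cells, and the summed tuft marker level was 7792 to 11580 CPM per library, against 33.1 to 47.5 CPM in the other epithelial cells. The cells were shallow, with a median of 2522.5 UMIs and 1029 genes, against a median of 4829 UMIs in the other 16041 epithelial cells. Of 8 markers of mast cells, which use the same lipid pathways, 7 were at 0, Cpa3, Mcpt1, Mcpt2 and Fcer1a among them, and Kit alone gave the list its 56.9 to 224 CPM per library. Of 10 myeloid markers 3 had a UMI, with a summed level of 36.8 to 87.5 CPM and with Lyz2, Cd68, Csf1r and Tyrobp at 0. Of 10 T cell markers 6 had a UMI (Cd3e, Cd8a, Trbc2, Gzma, Gzmb and Cd7), with a summed level of 8.50 to 25.3 CPM and with Cd3g, Cd3d, Trac and Nkg7 at 0. In the other epithelial cells the mast cell list was lower, at 18.4 to 25.2 CPM, and the myeloid list higher, at 96.7 to 107 CPM. The T cell list was at 2.365 to 13.9 CPM there, a range that overlapped that of the tuft-like cells. Paneth markers summed to 587 to 2965 CPM in the tuft-like cells of Fpr2f/f libraries and to 1720 to 4651 CPM in those of Fpr2VKO libraries, against 30100 to 97520 CPM in the other epithelial cells. Stem markers summed to 281 to 599 CPM in the tuft-like cells of Fpr2f/f libraries and 507 to 1277 CPM in those of Fpr2VKO libraries, TA markers to 227 to 358 and 313 to 648 CPM, and enteroendocrine markers to 164 to 414 and 110 to 267 CPM. The ranges of the genotypes overlapped for each of these lists, and their part in the genotype results was not tested. Because the clusters come from the same cells, levels in tuft-like against other cells are given as a description, with no test.

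Promoter sequences from RefSeq (GRCm38.p6) were at hand for 8 of the 10 genes, in 9 windows since Dclk1 has a pair of starts, and the 250 bases before each start were searched on both strands for the octamer ATGCAAAT, the motif of the POU family to which POU2F3 belongs, and for the TATA box TATAAA. The motifs do not overlap each other. The octamer stood in 1.601% of all 32851 windows of this length and in 1 of the 9, that of Hpgds, on the strand of the gene and beginning 174 bases before the start. The TATA box stood in 12.4% of all windows and in 0 of the 9. The Hpgds window is shown for its octamer, in capitals, beside the windows of Alox5 and Trpm5, which hold neither motif; all 3 lie on the minus strand, at chr6:65144731-65144980, chr6:116461179-116461428 and chr7:143094643-143094892. The Hpgds window lies in part within the longer GENCODE model of the gene, and the octamer is in that part. These matches are letters in a window and say nothing of binding.
Hpgds: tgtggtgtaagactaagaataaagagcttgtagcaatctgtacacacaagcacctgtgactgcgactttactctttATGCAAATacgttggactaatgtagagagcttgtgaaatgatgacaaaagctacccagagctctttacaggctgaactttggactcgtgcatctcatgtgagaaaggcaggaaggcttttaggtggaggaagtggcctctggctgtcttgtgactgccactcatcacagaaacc
Alox5: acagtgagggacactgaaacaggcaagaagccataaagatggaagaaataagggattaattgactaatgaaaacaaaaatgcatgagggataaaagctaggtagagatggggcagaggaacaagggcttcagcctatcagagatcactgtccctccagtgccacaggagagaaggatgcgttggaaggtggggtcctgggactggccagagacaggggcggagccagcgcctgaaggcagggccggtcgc
Trpm5: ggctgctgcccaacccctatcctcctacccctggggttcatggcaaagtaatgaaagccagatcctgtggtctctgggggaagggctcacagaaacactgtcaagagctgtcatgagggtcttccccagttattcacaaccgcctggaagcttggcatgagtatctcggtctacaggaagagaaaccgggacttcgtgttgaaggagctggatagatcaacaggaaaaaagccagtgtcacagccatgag

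Across the cell classes, 9 of the 10 genes had a CPM in tuft-like cells at least 5 times that of every other named epithelial class in at least 5 of 6 libraries, and these 9 did so in 6 of 6. Il25 did so in 4 of 6, and the other libraries had no Il25 UMI in tuft-like cells. The 10 genes were chosen with earlier results of these data known, and the rule was not run over all genes. Levels in CPM are compared between cells and libraries, not between genes of different length.

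**Figure D1:**
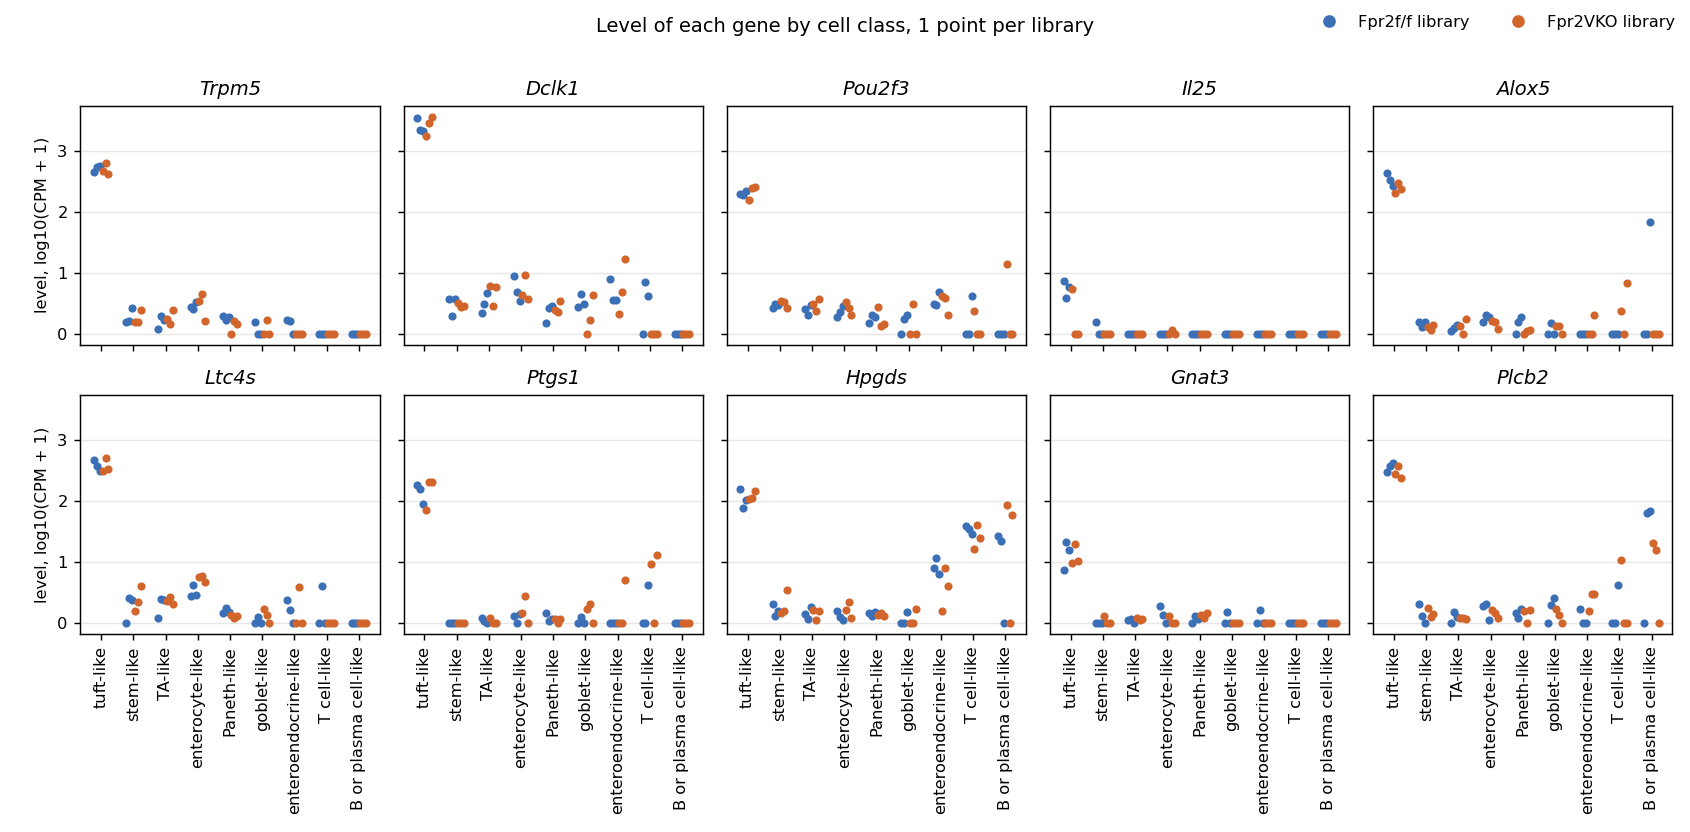
Level of each of the 10 genes on the log10(CPM + 1) scale in tuft-like cells, 6 other named epithelial classes and the T cell-like and B or plasma cell-like classes, with 1 point per library, blue for Fpr2f/f and orange for Fpr2VKO. The tuft-like points lie above those of the other epithelial classes except for Il25, which has no UMI in tuft-like cells of 2 libraries, and Hpgds has its next highest points in the T cell-like, B or plasma cell-like and enteroendocrine-like classes.

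Pou2f3, at chr9:43123939-43210369 on the minus strand (GRCm38, GENCODE vM21, as for every gene position below), encodes the POU-domain transcription factor that sets tuft cell fate. Its level in tuft-like cells was 196, 187 and 216 CPM in Fpr2f/f replicates 1 to 3 and 153, 249 and 252 CPM in Fpr2VKO replicates 1 to 3. The Fpr2f/f values lay inside the range of the Fpr2VKO values. In the other named classes its highest mean was in enteroendocrine-like cells, at 2.53 CPM, with stem-like cells at 2.01 CPM and transit-amplifying (TA)-like cells at 1.79 CPM. Of its epithelial UMIs 42.2% lay in tuft-like cells, which held 0.58% of the UMIs of all cells.

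Dclk1, at chr3:55242364-55539068 on the plus strand, encodes a microtubule-associated kinase widely used to mark tuft cells. Its level in tuft-like cells was 3473, 2168 and 2149 CPM in the Fpr2f/f libraries and 1773, 2865 and 3606 CPM in the Fpr2VKO libraries, so each genotype held libraries near both ends of the range. Tuft-like cells held 83.7% of its 3856 epithelial UMIs, between 73.0% and 88.9% by library.

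The taste pathway genes gave low and high counts. Gnat3, at chr5:17962549-18019834 on the plus strand, encodes gustducin, the taste G protein alpha subunit, and had only 17 UMIs in the tuft-like cells: 1, 7 and 3 in the Fpr2f/f libraries and 2 in each Fpr2VKO library. These were 6.31 to 19.8 CPM. Plcb2, at chr2:118707517-118728438 on the minus strand, encodes the phospholipase C that taste receptors act on. Its level was 297, 366 and 422 CPM in the Fpr2f/f libraries and 276, 368 and 233 CPM in the Fpr2VKO libraries. Trpm5, at chr7:143069153-143094642 on the minus strand, encodes the calcium-gated cation channel at the end of the cascade. Its level was 448, 533 and 559 CPM in the Fpr2f/f libraries and 473, 626 and 419 CPM in the Fpr2VKO libraries. The genotypes overlapped for all 3 genes, and for Trpm5 both the highest and the lowest library were Fpr2VKO. Outside tuft-like cells the highest epithelial mean of Trpm5 was 2.04 CPM, in enterocyte-like cells, and that of Plcb2 was 0.871 CPM, from 6 UMIs, in enteroendocrine-like cells.

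Il25, at chr14:54932695-54935837 on the plus strand, encodes the cytokine interleukin-25 and was barely captured. Over all barcodes of the 6 libraries it had 47 UMIs, 6 of them in epithelial cells and 4 in tuft-like cells. These 4 were 1 UMI in each Fpr2f/f library and 1 in Fpr2VKO replicate 1, with 0 in Fpr2VKO replicates 2 and 3. A library of no UMI allows up to 3 counts, more than any library had, so no genotype difference of Il25 was detectable at this depth.

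The leukotriene genes were Alox5, at chr6:116410077-116461178, and Ltc4s, at chr11:50236461-50238616, both on the minus strand. Alox5 encodes 5-lipoxygenase, which makes the precursor leukotriene A4, and Ltc4s encodes leukotriene C4 synthase, which conjugates it to glutathione. Alox5 was at 429, 337 and 260 CPM in the tuft-like cells of the Fpr2f/f libraries and at 206, 295 and 233 CPM in those of the Fpr2VKO libraries. The highest pair of libraries were Fpr2f/f and the lowest pair Fpr2VKO, with the third of each overlapping. Ltc4s was at 461, 368 and 309 CPM in the Fpr2f/f libraries and at 306, 507 and 329 CPM in the Fpr2VKO libraries, again with full overlap. Outside tuft-like cells Ltc4s was highest in enterocyte-like cells, at 3.33 CPM, and 58.6% of its epithelial UMIs lay in tuft-like cells, against 80.5% for Alox5. In enterocyte-like cells Ltc4s was at 1.73, 3.11 and 1.84 CPM in the Fpr2f/f libraries and at 4.595, 4.98 and 3.75 CPM in the Fpr2VKO libraries, from 6 to 34 UMIs each. These groups did not overlap, as was so for 21.3% of the 11950 genes with at least 50 UMIs in these cells, and no test was run within this class. It was 1 of 4 of the genes with that many UMIs there, and free RNA held Ltc4s at 2.97 to 5.57 CPM by library.

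The prostaglandin genes were Ptgs1, at chr2:36230426-36252272 on the plus strand, and Hpgds, at chr6:65117293-65144908 on the minus strand. Ptgs1 encodes the constitutive cyclooxygenase COX-1, and Hpgds the hematopoietic prostaglandin D synthase, which turns its product into prostaglandin D2. Ptgs1 was at 183, 153 and 88.3 CPM in the tuft-like cells of the Fpr2f/f libraries and at 70.0, 203 and 205 CPM in those of the Fpr2VKO libraries, and Hpgds was at 158, 76.5 and 103 CPM and at 105, 111 and 143 CPM. Neither gene separated the genotypes. Tuft-like cells held 80.5% of the epithelial UMIs of Ptgs1 and 48.9% of those of Hpgds.

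Hpgds was the gene of the set most often above the level of free RNA in other classes. In T cell-like cells (277 cells, 53 UMIs in 6 of 6 libraries) it was at 37.8, 33.3 and 28.2 CPM in the Fpr2f/f libraries and at 15.0, 39.9 and 23.8 CPM in the Fpr2VKO libraries, below each library's tuft-like level and above the 1.096 CPM of free RNA. In the 44 B or plasma cell-like cells it was at 0 to 85.0 CPM by library, from 18 UMIs. In enteroendocrine-like cells (570 cells, 41 UMIs) it was at 7.02, 10.4 and 5.25 CPM in the Fpr2f/f libraries and at 0.542, 6.84 and 3.04 CPM in the Fpr2VKO libraries. Both enteroendocrine-like clusters held it, at 5.92 and 4.86 CPM. Some tuft markers, among them Fyb and Ptpn6, are also lymphocyte genes. With every cell of these classes that had UMIs of at least 3 tuft markers left out, Hpgds was at 31.2 CPM in the 205 T cell-like cells left and above free RNA in 6 of 6 libraries, at 5.26 CPM in the 554 enteroendocrine-like cells left and above free RNA in 4 of 6, and had 4 UMIs in the 26 B or plasma cell-like cells left. Plcb2, at a mean of 27.4 CPM in the B or plasma cell-like class, had 0 UMIs in those 26 cells.

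In the other epithelial cells as a whole, each of the 10 genes was at a lower level than in free RNA. Trpm5 was at 505 CPM in tuft-like cells, 0.925 CPM in other epithelial cells and 3.52 CPM in free RNA, all pooled over libraries. Dclk1 was at 2557, 2.94 and 10.7 CPM and Ltc4s at 365, 1.52 and 3.83 CPM. The closest to free RNA by ratio were Hpgds, at 110, 0.678 and 1.096 CPM, and Pou2f3, at 203, 1.64 and 2.69 CPM. The pooled tuft-like level was 80.1 times that of the other epithelial cells for Gnat3, 545 times for Trpm5 and 868 times for Dclk1. Among the other epithelial cells, 132 had UMIs of at least 3 tuft markers, at a median of 22490 UMIs, and made up 0.548% to 0.646% of epithelial cells in the Fpr2f/f libraries and 0.983% to 1.22% in the Fpr2VKO libraries. The median depth of epithelial cells was 2950 to 4473 UMIs in Fpr2f/f libraries and 6117 to 6640.5 UMIs in Fpr2VKO libraries, and its part in this difference was not tested. These 132 cells held 56.8% of the Ptgs1 UMIs outside the tuft-like class, 47.7% of those of Plcb2, 45.6% of those of Dclk1 and 41.4% of those of Trpm5, but 10.8% of those of Pou2f3 and 5.56% of those of Gnat3. Without them the level outside tuft-like cells was 0.136 (Plcb2) to 0.178 (Alox5) times that of free RNA for 5 genes, and 0.553 times for Pou2f3, 0.498 for Hpgds, 0.364 for Gnat3 and 0.340 for Ltc4s.

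**Figure D2:**
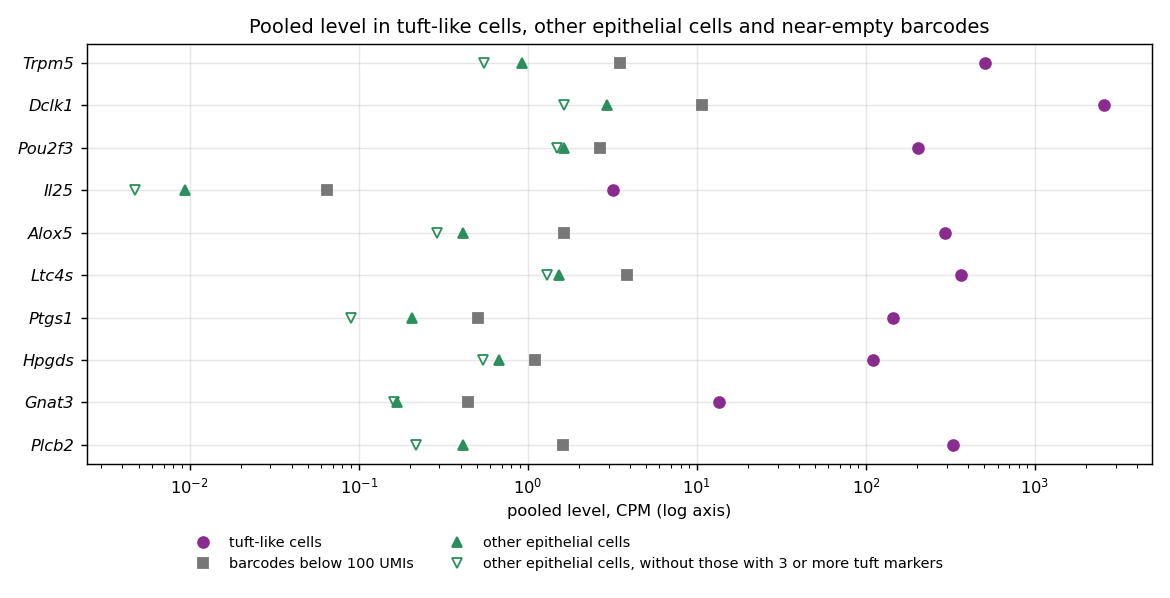
Pooled level of each gene in CPM, on a log axis, in tuft-like cells (purple circles), in barcodes below 100 UMIs (gray squares) and in the other epithelial cells with (filled green triangles) and without (open green triangles) the 132 cells that had 3 or more tuft markers. Every green symbol lies to the left of the gray square of its gene, and every purple circle to the right, from 3.17 CPM for Il25 to 2557 CPM for Dclk1.

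Most transcripts of the 10 genes were outside the cells analyzed, as were those of all genes. The cells that met the rule held 26.9% to 34.4% of the UMIs of 8 of the genes, and 29.5% of all UMIs. Gnat3 and Il25 had smaller shares, 12.7% and 12.8%, and 40.9% of the Gnat3 UMIs lay in barcodes of at least 100 but fewer than 1000 UMIs, against 18.2% of all UMIs. When barcodes of up to 40% mitochondrial UMIs were clustered together, the tuft-like class held 312 cells of at most 20% and 213 of 20% to 40%. In the second set Gnat3 was at 37.8 CPM, from 38 UMIs, against 14.1 CPM in the first, from 18 UMIs, and Trpm5 was at 575 against 480 CPM and Il25 at 6.96 against 3.14 CPM, from 7 and 4 UMIs. Ptgs1 was at 141 against 140.5 CPM, and the other 6 genes were lower in the second set, Dclk1 at 2103 against 2465 CPM and Hpgds at 69.6 against 107 CPM among them.

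The genes were seen together in single cells. A tuft-like cell had UMIs of 4.28 of the 10 genes on average, 311 of the 314 cells had at least 1, 255 at least 3 and 140 at least 5. No cell had all 10, and 3 cells had 9. In the other epithelial cells the mean was 0.0870, 92.6% had none and 42 of 16041 had at least 3. Of those 42 cells, 7 were stem-like, with a median of 4318 UMIs and a mean of 2.43 tuft markers, and the others had medians of 19300 to 37380 UMIs by class and means of 7.10 to 8.50 tuft markers.

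**Figure D3:**
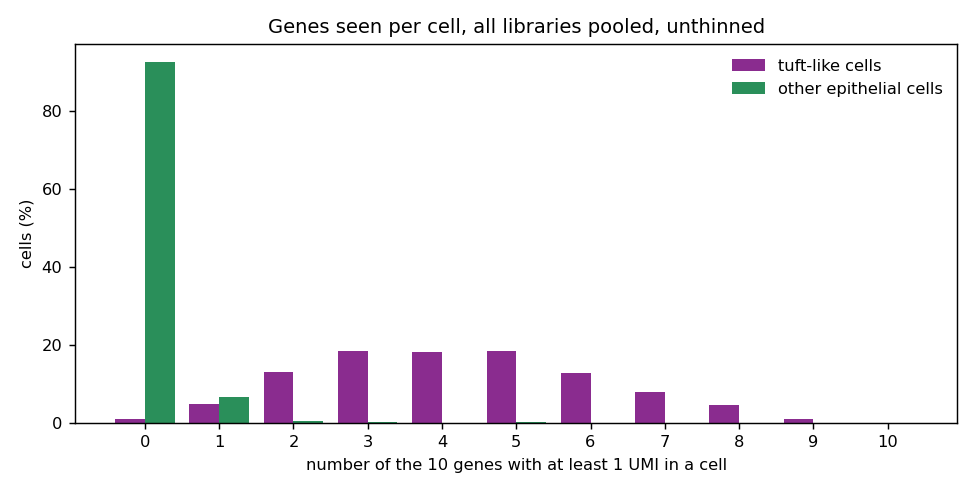
Percentage of tuft-like cells (purple) and of other epithelial cells (green) by the number of the 10 genes with at least 1 UMI in the cell, over all 6 libraries at full depth. Tuft-like cells peak at 3 to 5 genes (18.2% to 18.5% each), and 92.6% of other epithelial cells have 0.

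With each cell thinned to 1000 UMIs, the expected share of tuft-like cells with a UMI was 83.4% ± 4.38 for Dclk1 (mean and SD, n = 6 libraries), 38.0% ± 4.62 for Trpm5, 34.1% ± 1.99 for Plcb2, 29.0% ± 4.199 for Ltc4s, 22.4% ± 4.71 for Alox5, 16.7% ± 3.57 for Pou2f3, 13.7% ± 4.84 for Ptgs1 and 9.36% ± 2.79 for Hpgds. At full depth the shares over all 314 cells were 93.3% for Dclk1, 66.9% for Trpm5, 65.0% for Plcb2, 55.4% for Ltc4s, 45.5% for Alox5, 38.2% for Pou2f3, 32.2% for Ptgs1 and 25.2% for Hpgds. In the other epithelial cells the thinned shares of these 8 genes ran from 0.0193% (Ptgs1) to 0.448% (Dclk1).

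The pairs of genes that act in sequence were both seen in a part of the tuft-like cells. Alox5 and Ltc4s were both seen in 96 cells (30.6%), Ptgs1 and Hpgds in 39 (12.4%), and all 4 in 25 (7.96%). At least 1 gene of each of these branches was seen in 112 cells (35.7%), and at least 1 of the 4 genes in 250 (79.6%). Plcb2 and Trpm5 were both seen in 141 cells (44.9%), and Gnat3 with both in 10. Among the 143 cells with Alox5, Ltc4s was seen in 67.1% and Ptgs1 in 49.0%, against 45.6% and 18.1% of the cells without Alox5; cells of greater depth show more of every gene, and these shares are at unequal depth.

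Plcb2 was the gene whose level went with depth in every library. Split at the median depth of each library's own tuft-like cells, its level was higher in the shallower cells in 6 of 6 libraries, at 598 ± 124 CPM against 249.6 ± 83.0 CPM (mean and SD over libraries). The other 9 genes were higher in the shallower cells in 1 to 3 of 6 libraries. Ltc4s was so in 1, at 323 ± 93.7 CPM against 398 ± 90.6 CPM. Tuft-like cells of Fpr2VKO replicate 2 had the lowest median depth, 1776 UMIs, and those of Fpr2VKO replicate 1 the highest, 3562 UMIs.

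The share of tuft-like cells did not separate the genotypes. They were 53 of 2553, 80 of 4488 and 60 of 2718 epithelial cells in the Fpr2f/f libraries (2.08%, 1.78% and 2.21%) and 38 of 2136, 44 of 2646 and 39 of 1814 in the Fpr2VKO libraries (1.78%, 1.66% and 2.15%). The means were 2.02% ± 0.218 and 1.86% ± 0.254 (SD, n = 3 each; two-sided exact permutation test, p = 0.4, where 0.1 is the smallest p that 3 against 3 allows). Without Fpr2VKO replicate 3 the groups did not overlap (difference of -0.301 percentage points, exact permutation p = 0.2, n = 3 and 2). The groups also did not overlap when at most 10% mitochondrial UMIs were allowed (3.12% ± 0.843 against 1.73% ± 0.690, n = 3 each, exact permutation p = 0.1, on 104 tuft-like cells). When every epithelial cell with UMIs of at least 3 tuft markers was counted instead, the direction turned, with 2.62% ± 0.184 against 2.91% ± 0.316 (n = 3 each, exact permutation p = 0.3), and the part of the depth difference given above was not tested.

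Within tuft-like cells the expression of the 10 genes was compared between genotypes on UMIs summed per library, so that the library was the replicate. Of the 10 genes, 8 passed the filter on low counts, and 0 of these 8 were called at an adjusted p under 0.05, where 0.0314% of all 3183 genes tested were called (edgeR's quasi-likelihood test, Benjamini-Hochberg adjustment). Il25 and Gnat3 had too few UMIs to be tested. The median mitochondrial share of the tuft-like cells was 10.6%, 10.6% and 12.1% in Fpr2f/f libraries and 14.7%, 12.1% and 15.7% in Fpr2VKO libraries, and its part in these results was not tested. DESeq2 called 0 of the 8 as well, and 0 of the 8 had an unadjusted edgeR p under 0.05, against 133 of all genes. The only gene called was Mt1, a metallothionein that is named here after its value was seen. The 8 genes had a median log2 fold change (Fpr2VKO over Fpr2f/f) of -0.04, against 0.01 over all genes tested.

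The 95% intervals show what these libraries could hold. The log2 fold change in tuft-like cells was -0.58 for Alox5 (SE 0.29, interval -1.18 to 0.03, edgeR adjusted p = 0.997) and -0.41 for Plcb2 (SE 0.29, interval -1.01 to 0.19). For Trpm5 it was -0.11 (interval -0.68 to 0.46) and for Ltc4s -0.09 (interval -0.69 to 0.52). For Pou2f3 it was 0.02 (interval -0.60 to 0.64), for Ptgs1 0.03 (interval -0.75 to 0.82) and for Hpgds 0.06 (interval -0.65 to 0.78). The interval of Dclk1 ran from -0.52 to 0.52 around a value near 0. The values depended on which cells were taken. With at most 10% mitochondrial UMIs Alox5 was at 0.03, Plcb2 at 0.43, Dclk1 at 0.48 and Ltc4s at 0.64. With up to 40% each of the 8 was below 0. Alox5 was at -0.65 (interval -1.18 to -0.12) and Plcb2 at -0.58 (interval -1.10 to -0.06). None was called, where 0.0978% of 5112 genes were (edgeR). The Alox5 interval was also below 0 with the genes allowed in the clustering, without shared barcodes, and without Fpr2f/f replicate 3 or Fpr2VKO replicate 2. It held 0 with the replicate block, without alignment and without each other library. The Plcb2 interval was below 0 without Fpr2VKO replicate 2 as well (-1.23 to -0.02). In all epithelial cells with at least 3 tuft markers, each of the 8 was below 0. Among them Alox5 was at -1.16, Plcb2 at -0.98, Ltc4s at -0.70, Trpm5 at -0.66 and Dclk1 at -0.54. The intervals of Alox5, Plcb2, Ltc4s, Trpm5 and Pou2f3 were below 0, and none was called, where 0.238% of 7973 genes were (edgeR). This set adds deep cells of other clusters (median 22490 UMIs), a larger share in Fpr2VKO libraries, so its sums are not of tuft-like cells alone. In the main fit of tuft-like cells a rise of 1 on the log2 scale lay outside the intervals of all 8 genes. A fall of 1 lay outside those of 6 and inside those of Alox5 and Plcb2. Under alternatives these limits did not hold for every gene. The interval of Ptgs1 reached 1.02 with the replicate block and 1.20 without Fpr2VKO replicate 1. At 10% a rise of 1 lay inside the intervals of Dclk1, Alox5, Ltc4s (up to 1.48), Ptgs1 and Plcb2. A fall of 1 lay inside those of Pou2f3 and Ptgs1 there. With 1 library left out, both a rise and a fall of 1 lay inside the intervals of Ptgs1 and Hpgds in some fits. With at least 3 tuft markers a fall of 1 lay inside the intervals of all 8 genes, and that of Trpm5 reached least far, to -1.07.

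**Figure D4:**
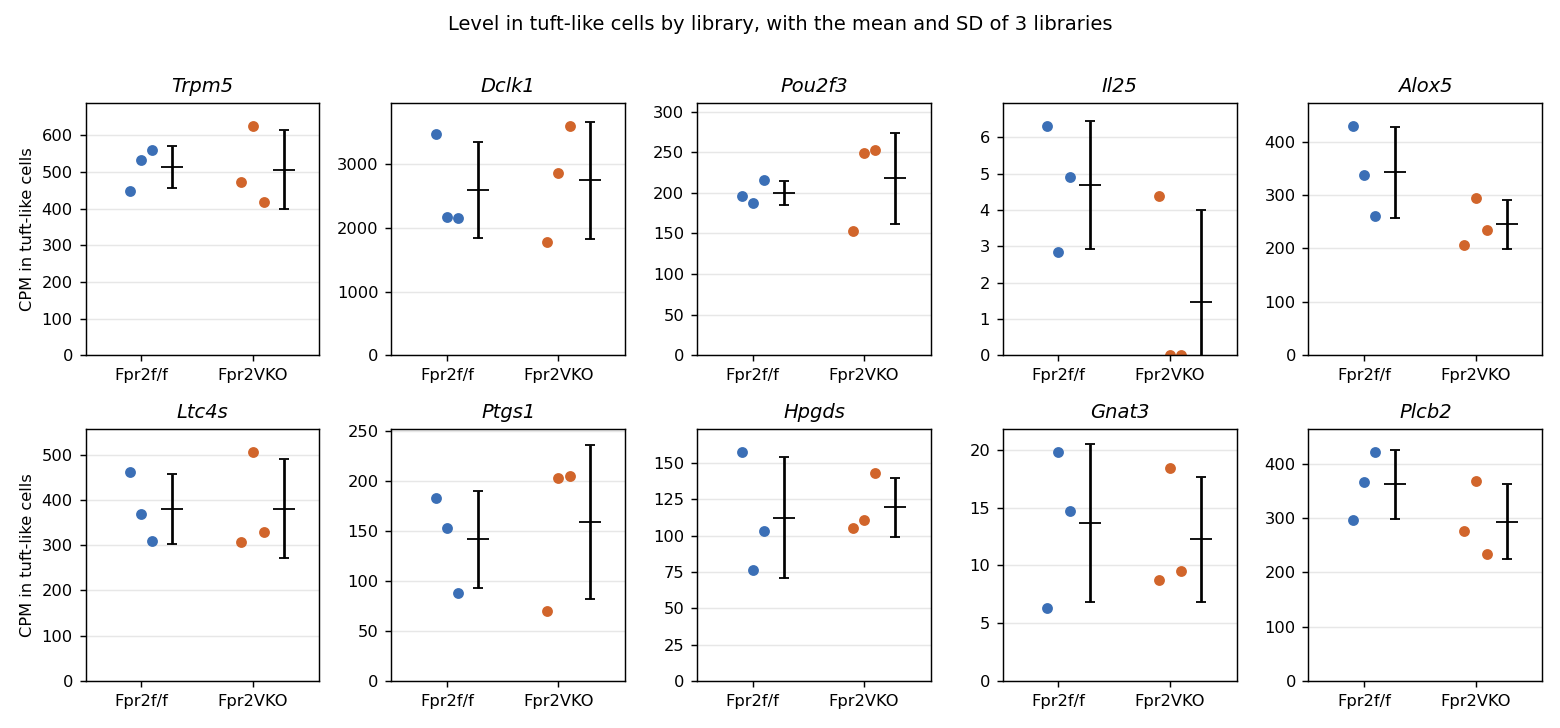
Level of each gene in the tuft-like cells of each library in CPM, blue for Fpr2f/f and orange for Fpr2VKO, with a bar for the mean and whiskers for the SD of 3 libraries. The genotypes overlap in every panel; in that of Alox5 the Fpr2f/f libraries are at 260 to 429 CPM and the Fpr2VKO libraries at 206 to 295 CPM.

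The shares of tuft-like cells with a UMI gave the same picture. At 1000 UMIs per cell the groups overlapped for each of the 10 genes, where 11.5% of 3745 genes with at least 50 UMIs in these cells did not overlap, with exact permutation p-values of 0.2 to 1 (n = 3 each, two-sided). Alox5 was seen in 24.8% ± 5.87 of the Fpr2f/f cells and in 19.98% ± 1.82 of the Fpr2VKO cells, and Hpgds in 8.16% ± 2.67 and 10.6% ± 2.82 (SD over libraries). The number of the 10 genes seen per tuft-like cell at this depth was 2.60, 2.505 and 2.32 in Fpr2f/f libraries and 2.38, 2.65 and 2.46 in Fpr2VKO libraries. The means were 2.48 ± 0.139 and 2.497 ± 0.139 (n = 3 each, exact permutation p = 0.8).

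Summed over all epithelial cells, where a change in level and a change in the number of tuft cells cannot be told apart, 0 of the 8 genes tested were called, where 0.0363% of 16529 genes were (edgeR). Alox5 was at 3.09, 2.97 and 2.25 CPM in the Fpr2f/f libraries and at 1.58, 0.963 and 2.07 CPM in the Fpr2VKO libraries. These groups did not overlap, as was so for 13.7% of the 17120 genes with at least 50 UMIs in these cells, and its log2 fold change was -0.83 (SE 0.27, interval -1.42 to -0.24, edgeR adjusted p = 0.439). Plcb2 was at 2.14, 3.13 and 3.09 CPM and at 2.22, 1.25 and 2.01 CPM, with a log2 fold change of -0.60 (SE 0.26, interval -1.17 to -0.03, edgeR adjusted p = 0.542), and its groups overlapped. The value of Plcb2 was -0.19 (interval -0.80 to 0.41) with up to 40% mitochondrial UMIs allowed, and its interval also held 0 with at most 10%, with doublets kept, and without Fpr2f/f replicate 2, Fpr2f/f replicate 3 or Fpr2VKO replicate 2. Of all genes tested, 1477 had an unadjusted p under 0.05 and DESeq2 called 113. Among the 1477 were Alox5 and Plcb2 but no other gene of the 8, and none of the 8 was among the 113. Tuft-like cells held 0.627%, 0.718% and 0.637% of the epithelial UMIs in Fpr2f/f libraries and 0.611%, 0.261% and 0.702% in Fpr2VKO libraries, and the lowest of these, Fpr2VKO replicate 2, was also the lowest library for Alox5 and Plcb2. The log2 fold change of Alox5 was -0.60 without that library and -1.08 without Fpr2VKO replicate 3, and it was -0.34 with up to 40% mitochondrial UMIs allowed and -1.27 with at most 10%. In the epithelial cells that were not tuft-like, 0 of the 7 genes tested were called, where 0.0182% of 16448 genes were (edgeR). Alox5 was at 0.399, 0.553 and 0.598 CPM in those cells of the Fpr2f/f libraries and at 0.323, 0.193 and 0.438 CPM in those of the Fpr2VKO libraries.

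**Figure D5:**
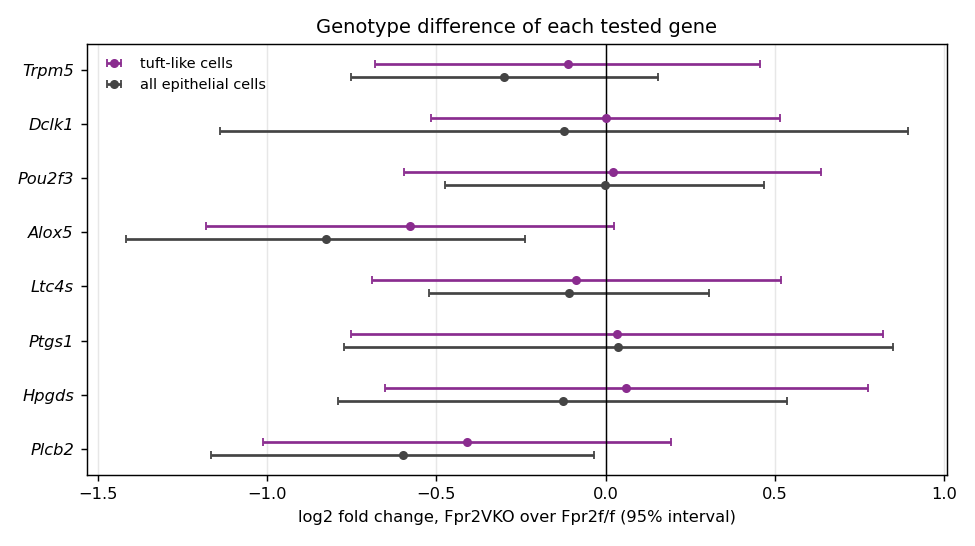
Log2 fold change of Fpr2VKO over Fpr2f/f with its 95% interval for the 8 genes tested, in tuft-like cells (purple) and in all epithelial cells (gray). In tuft-like cells every interval holds 0, though those of Alox5 and Plcb2 lie below 0 under several alternatives. Those of Ltc4s, Trpm5 and Pou2f3 do so with at least 3 tuft markers. In all epithelial cells those of Alox5 (-1.42 to -0.24) and Plcb2 (-1.17 to -0.03) do not hold 0, before adjustment for the number of genes tested. That of Plcb2 in all epithelial cells holds 0 under several alternatives.

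Other genes of the same pathways showed how much of each route tuft-like cells held. Of 15 further chemosensing genes, 5 were at least 5 times higher in tuft-like cells than in every other named epithelial class in at least 5 of 6 libraries, a rule whose list was chosen with results known. Gng13, the gamma subunit that pairs with gustducin, was at 279 ± 79.3 CPM (mean and SD of 6 libraries) against 1.23 CPM in whichever other named epithelial class was highest in each library (mean over libraries, as for the values of other classes below), and Itpr2, a calcium release channel, at 483 ± 114 CPM against 15.0 CPM. Plcg2, a phospholipase C gamma, was at 362 ± 63.3 CPM, Sucnr1, the succinate receptor, at 49.0 ± 28.9 CPM, and Vmn2r26, a vomeronasal receptor gene, at 21.9 ± 11.9 CPM. Tas1r1 and Tas1r2, which encode taste receptor subunits, had 0 UMIs in tuft-like cells, and Tas1r3 had 3. A gene with 0 UMIs in these cells could be at up to 2.38 CPM, so such zeros, here and below, do not show absence. Elsewhere Tas1r1 was at 0.991 CPM and Tas1r2 at 0.113 CPM, below that limit.

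Of 36 further eicosanoid genes found, 1 met the same rule. This was Alox5ap, which encodes the protein that presents arachidonic acid to 5-lipoxygenase, at 617 ± 196 CPM in tuft-like cells against 1.93 CPM, and 12 of the 36 had no UMI in tuft-like cells. Pla2g4a, the phospholipase that frees arachidonic acid, was at 216 ± 72.7 CPM against 71.5 CPM. Lta4h, which leads to leukotriene B4, was at 67.1 ± 28.6 CPM against 128.5 CPM. The inducible cyclooxygenase Ptgs2 had 5 UMIs in tuft-like cells, and Ptgds and Tbxas1, the synthases of prostaglandin D2 in brain and of thromboxane, had 0. Of the genes for prostaglandin E synthases, Ptges had 0, Ptges2 had 8 and Ptges3 had 180. The levels outside the rule were named after their values were seen.

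Of 17 genes of the type 2 circuit and of tuft cell fate, 4 met the rule. Siglecf, a sialic acid-binding lectin, was at 140 ± 67.3 CPM, Il17rb, a subunit of the interleukin-25 receptor, at 83.6 ± 41.4 CPM, Ptprc, the leukocyte phosphatase CD45, at 76.1 ± 57.0 CPM and Chat, which makes acetylcholine, at 50.7 ± 12.7 CPM. None of the 7 chemosensing, 6 eicosanoid and 9 type 2 or fate genes tested in tuft-like cells was called between the genotypes, with 1, 1 and 0 of them at an unadjusted edgeR p under 0.05, where 1 of all 3183 genes tested was called (0.0314%) and 133 were at an unadjusted p under 0.05. The lowest was Gng13, with a log2 fold change of -0.71 (SE 0.30, edgeR adjusted p = 0.997). Over all epithelial cells, where 0.0363% of all genes were called, 1 of the 12 chemosensing, 24 eicosanoid and 15 type 2 or fate genes tested was called, Ascl2, a stem cell transcription factor, with a log2 fold change of 1.09 (SE 0.16, edgeR adjusted p = 0.0494). It had 12 UMIs in tuft-like cells, and with these cells left out its log2 fold change was as large, at 1.11, with an edgeR adjusted p of 0.0522.

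The genes whose pattern over the 9 named classes was most like that of each of the 10 genes were found among 9918 genes with at least 20 CPM in some class, by Pearson's r of the mean log2(CPM + 1). The classes share libraries and one class carries most of the level, so r is a description. Of the genes named below, Rgs13, Ptpn6, Fyb, Gfi1b and Ly6g6f are markers from the list that named the tuft-like class. The r values of Il25 rest on 4 UMIs in tuft-like cells. Chat was among the 3 most alike for Trpm5 (r = 0.994), Dclk1 (r = 0.987), Pou2f3 (r = 0.986) and Ltc4s (r = 0.990). Alox5 and Plcb2 shared Ackr4, an atypical chemokine receptor (r = 0.993 and 0.990). Il25 and Gnat3 shared Gfi1b, a zinc-finger repressor (r = 0.998 and 0.997), and the other genes alike to them were Gm17660 and Hmx3, and Sh2d7 and Hmx2. Ptgs1 was closest to Nrgn (r = 0.980), followed by Itprid1 and Atp2b2. Hpgds was closest to Pik3r5, Ptpn6 and Fyb (r = 0.979 for the first and second), genes of leukocyte signaling. The remaining names were Adcy5 and Gm17660 for Trpm5, Rgs22 and Ly6g6f for Dclk1, Kcnd3 and Ly6g6f for Pou2f3, Rgs13 for Alox5, 1810046K07Rik and Adcy5 for Ltc4s and Cd300lf for Plcb2.

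Several of the genes overlap a neighboring gene in position. Trpm5 overlaps Tssc4 on the other strand. Ltc4s, Ptgs1 and Hpgds each overlap a predicted gene on the other strand (Gm26542, Gm43621 and Gm17147), while Dclk1 overlaps predicted genes on both strands. Whether reads were counted by strand is not given in the sources used here, and UMIs of such pairs could have been assigned to either gene.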

How the data were processed

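For each of 6 libraries the deposited file was a gene by barcode matrix of unnormalized counts of UMIs, which the authors made with MobiVision from reads aligned to mm10, before cell calling; per the labels, Seurat 4.0.0 and 4.0 were used later. The annotation is not given in the sources used here. The members and lists were chosen with earlier results of these data known. Cells met the stated limits; doublets were scored against 25% artificial doublets and 0.8% of a library for each 1000 cells in it was removed, highest scores first. Counts were log-normalized, 2000 variable genes without the 10 genes and pathway lists were reduced to 30 principal components, and after alignment of libraries on mutual nearest neighbors the cells were clustered by the Leiden method (20 neighbors, resolution 1; scanpy 1.11.5, leidenalg 0.10.2) and named from marker lists; several shallow clusters took a name with none of its markers among their 10 leading genes, and 2819 cells in 6 clusters stayed unnamed. Counts were summed per library and tested with edgeR 4.0.16 (TMM, filterByExpr, robust quasi-likelihood; R 4.3.3), with DESeq2 1.42.0 as an alternative, after tests on simulated data. Shares were compared by exact permutation. Genes were named by rule: the 10 genes, pathway genes called or at least 5 times every other named epithelial class in tuft-like cells in 5 of 6 libraries, the 3 genes most alike to each, Fpr2 and 5 leading genes of the cluster; 1 gene that the rule names is not reported here. Alternatives were other mitochondrial limits, filters, clusterings, tests, a replicate block and leaving out each library.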

Additional observations from a re-analysis of the deposited data

How the results depend on the processing

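None of the 10 genes was called between the genotypes in any population or alternative in which it was tested. The lowest adjusted p was 0.0636 (edgeR, Plcb2, -0.98 on the log2 scale), in cells with UMIs of at least 3 tuft markers. Of these 441 cells 70.1% were in the tuft-like cluster. The others were deep cells of other clusters, at a median of 22490 UMIs against 2522.5 in tuft-like cells. The fit sums UMIs, so these deep cells weighed more than their number. Plcb2 was at 12.5 CPM in them, against 328 CPM in tuft-like cells, and their part in its log2 fold change was not tested. Of 134 values of single genes under alternatives other than leaving out a library, 114 kept their direction. In tuft-like cells the log2 fold changes that turned were, at 10% mitochondrial UMIs (104 cells), 0.15 for Trpm5, 0.48 for Dclk1, -0.11 for Pou2f3, 0.025 for Alox5, 0.64 for Ltc4s, -0.0563 for Ptgs1 and 0.43 for Plcb2. At 40% they were -0.35 for Pou2f3, -0.27 for Ptgs1 and -0.30 for Hpgds, and with at least 3 tuft markers -0.67 for Pou2f3, -0.26 for Ptgs1 and -0.60 for Hpgds. Dclk1 turned to 0.0057 with DESeq2 and 0.0425 without alignment, Pou2f3 to -0.0548 with doublets kept, and Ptgs1 to -0.0144 with the genes allowed in the clustering. In all epithelial cells Pou2f3 turned to 0.0156 without a filter on low counts and, at 40%, to 0.16, with Hpgds at 0.12. Values there also moved at 10%, where the median log2 fold change of the 7 genes tested was -0.68. That of the 8 genes in the main fit was -0.13, and that of all genes tested at 10% was -0.02. The cause of these turns and of this move was not tested. Leaving out 1 library gave -0.32 to 0.0584 for Trpm5, -0.18 to 0.24 for Dclk1, -0.11 to 0.23 for Pou2f3, -0.75 to -0.42 for Alox5, -0.37 to 0.059 for Ltc4s, -0.20 to 0.43 for Ptgs1, -0.16 to 0.3349 for Hpgds and -0.63 to -0.21 for Plcb2 in tuft-like cells. In all epithelial cells it gave -0.46 to -0.18 for Trpm5, -1.08 to -0.60 for Alox5, -0.77 to -0.41 for Plcb2, -0.65 to 0.13 for Dclk1, -0.12 to 0.15 for Pou2f3, -0.19 to 0.0561 for Ltc4s, -0.38 to 0.31 for Ptgs1 and -0.45 to 0.0622 for Hpgds.

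The difference in the share of tuft-like cells (Fpr2VKO minus Fpr2f/f) turned to 0.289 percentage points with at least 3 tuft markers. The number of the 10 genes per tuft-like cell, 0.0220 higher in Fpr2VKO, turned to -0.212 at 40%, -0.0260 with the genes allowed in the clustering and -0.308 with at least 3 tuft markers, where the genotypes did not overlap, and ran from -0.0551 to 0.0830 with 1 library left out. With 1 library left out, 0 to 2 of the 10 genes had shares of cells that did not overlap between the genotypes, against 0; of the 8 genes with at least 50 UMIs this was 0 to 1, where 19.9% to 23.9% of 3745 such genes did not overlap.

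The number of genes called among all tested, 1 in tuft-like cells, was 5 without a filter, 5 at 40% and 19 with at least 3 tuft markers, and 1 to 13 with 1 library left out, the most without Fpr2VKO replicate 2. In all epithelial cells it was 6, and 113 with DESeq2, 179 without a filter, 51 with the replicate block, 144 at 10% and 1 to 109 with 1 library left out, the most without Fpr2f/f replicate 1. In epithelial cells that were not tuft-like it was 3 (Mt1, Olfm4 and Gm29051, named after their values were seen), and 112, 192, 49, 135 and 1 to 121 under the same alternatives, and 12 without barcodes found in 2 libraries, an alternative chosen after seeing the data. In tuft-like cells the replicate numbers did not pair the libraries (correlations of deviations of same-numbered libraries -0.0339, 0.0592 and -0.0865). In all epithelial cells these were -0.0637, -0.0436 and 0.285, the last the highest of any pair, so pairing was not settled there. The replicate block called 0 of the 8 genes tested in tuft-like cells and in all epithelial cells. In the latter the interval of Plcb2 held 0 under it. Depth limits Il25 and Gnat3, with 4 and 17 UMIs in tuft-like cells.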
